A study of Mus musculus with 48 samples.

Results

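Livers of mice without PPARα in hepatocytes were compared between a control diet (CTRL) and a high-fat diet (HFD). The comparison takes every array whose genotype label is PPARaLKO, which gives 8 HFD mice and 8 CTRL mice, 16 of the 48 arrays of the series, and it covers all genes measured, with the wash batch as a covariate. All mice were male C57Bl6J animals aged 20 weeks. The HFD held 60% fat and, per the labels, was given for 12 weeks, whereas the study's text gives a shorter feeding time. PPARaLKO mice carry a floxed Ppara gene and an albumin-driven Cre recombinase, so the deletion is limited to cells that use the albumin promoter and the other liver cells keep the gene. PPARaWT mice, which keep the gene, and PPARaKO mice, which lack it in the whole body, formed 8 CTRL and 8 HFD animals each and served to ask whether the diet response differed. According to the study's methods all mice were housed at thermoneutrality and were killed in the fed state.

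PPARα is a nuclear receptor that binds fatty acids and, paired with RXR, switches on genes of fatty acid uptake, peroxisomal and mitochondrial oxidation and ketone body formation. In the liver most of it is in hepatocytes. Cholesterol synthesis and fatty acid synthesis are driven by other factors, SREBP2 for the sterol pathway and SREBP1c with ChREBP for lipogenesis, and the Cyp2b genes are the classic targets of the nuclear receptor CAR.

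In PPARaLKO mice the HFD raised Cyp2b9 and Cyp2b10 by more than any other gene with a symbol, raised their relative Cyp2b13 too, and lowered 20 of 25 genes of cholesterol synthesis and 14 of 28 genes of lipogenesis. It raised 23 of 42 PPARα target genes. Over all genes 12.3% were higher and 11.3% lower. With all arrays at equal weight 18 of the cholesterol genes and 8 of the lipogenesis genes fell (2.28% of all genes). In that setting 12 of the target genes rose (2.03% of all genes). Of macrophage and collagen genes 18 of 28 and 24 of 42 rose, but 1 CTRL mouse had levels of these lists above every HFD mouse, and 1 gene of each list rose when all arrays had equal weight.

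One Agilent array was hybridised per mouse, and each value is a log2 signal after quantile normalization, so that a difference of 1 is a doubling. Median raw intensity was 60 to 91 on the CTRL arrays and 62.5 to 82 on the HFD arrays, 30654 to 38217 spots per array were well above background, and 0 spots were saturated. Of 33323 probes tested with limma, 6735 (20.2%) were called at a Benjamini-Hochberg adjusted p of at most 0.05, with 3152 higher and 3583 lower on the HFD. Higher calls were thus 46.8% of the total, but 34.6% when the scanner's processed signal was scaled at its 75th percentile and 33.4% under median centring. The calls covered 5632 gene names. With each gene represented by its brightest tested probe, 12.3% of 17389 genes were higher and 11.3% were lower, and these are the backgrounds against which the gene groups below are read. Most changes were small, with a median size of 0.31 among the called probes and 303 probes changing by at least 1.

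Array weights, which give less influence to arrays that depart from their group, carried much of this number. Without them 1270 probes were called, 1269 of which were among the 6735, and the share of genes was 2.03% higher and 2.28% lower. One animal stood apart. CTRL replicate 1 had a weight of 0.189, against 1.13 to 1.71 in the other CTRL mice and 0.701 to 2.53 in the HFD mice. In it 2603 probes lay at least 2-fold from the mean of the other 7 CTRL mice, compared with 100 to 303 probes in each of those mice and 128 to 494 in the HFD mice. Its liver was high in Gpnmb and Cyp2b10 and low in Hsd3b5, all of which are described below. Without this mouse 7494 probes were called with weights, 6682 of them shared with the full set and all in the same direction, and 1916 without weights, or 3.42% of genes higher and 3.34% lower. At an unadjusted p below 0.05, which is given beside some counts below, 19.1% of genes were higher and 18.1% lower with weights, and 8.5% and 8.84% without. At that threshold the response differed from PPARaWT and PPARaKO mice in 29% and 17.1% of genes with weights, and in 14.3% and 10% without, so that a count near these shares is no result about a list. The wash batches were also uneven, with 3 CTRL and 5 HFD mice in the first and 5 CTRL and 3 HFD mice in the second. Of the called probes, 522 had a difference of the opposite sign within the first batch, which held CTRL replicate 1, and 5 within the second.

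Complete separation of the 8 HFD mice from the 8 CTRL mice was rare. All HFD mice lay above all CTRL mice at 73 probes (0.219%) and below at 124 probes (0.372%). Of the separated probes 70 and 120 were also called, and they gave 49 genes that rose and 71 that fell.

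**Figure D1:**
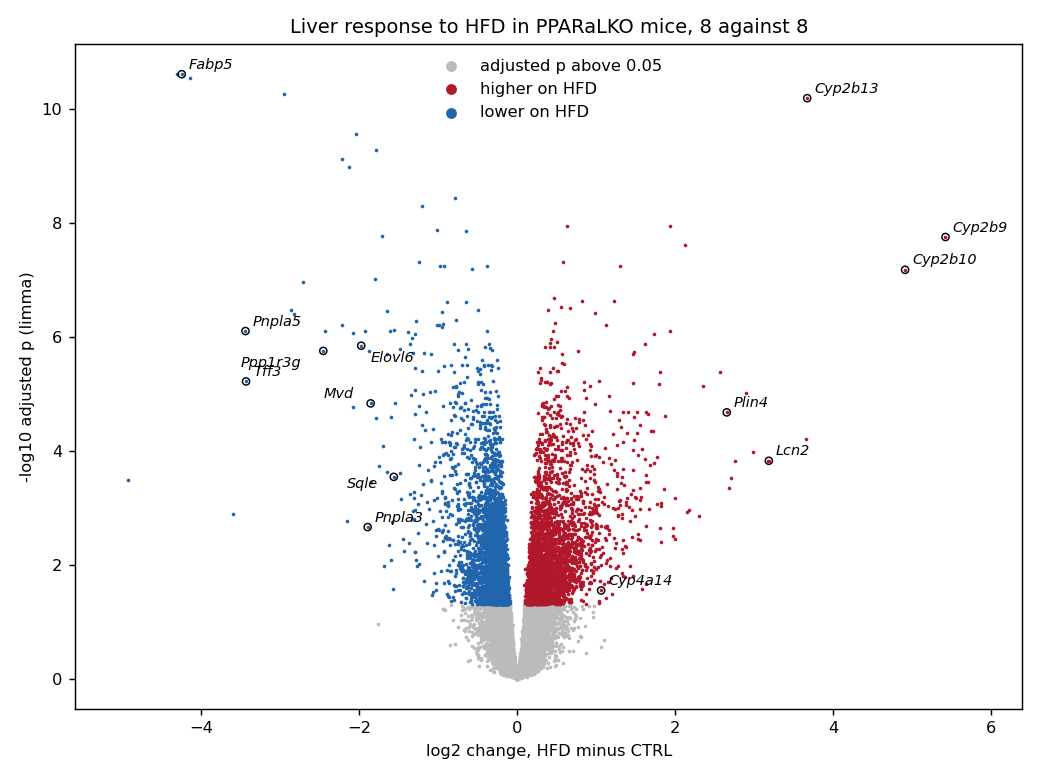
Log2 change on the HFD (x axis) against -log10 adjusted p (y axis) for the 33323 tested probes of PPARaLKO mice. Coloured points are the 6735 called probes and the labelled genes are among those described in the text, with the Cyp2b genes far to the right and Fabp5, Pnpla5 and Tff3 to the left.

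Neither Ppara probe checks the deletion. The gene was read by 2 probes, the brighter at mm9 chromosome 15, 85632110 to 85632169. Its log2 signal was 13.26, 14.11 and 14.28 (lowest, median and highest) in PPARaLKO CTRL mice and 14.11, 14.24 and 14.54 in PPARaLKO HFD mice, and the change of 0.10 was not called (standard error 0.08, adjusted p = 0.449). The dimmer probe changed by -0.09 (adjusted p = 0.436). PPARaKO mice gave a clear signal at both probes, with medians of 13.92 and 14.03 on the CTRL diet and the HFD at the brighter and of 11.81 and 12.08 at the dimmer. The diet response of the brighter probe was lower by 0.42 in PPARaLKO than in PPARaWT mice (adjusted p = 0.029), and that of the dimmer differed by -0.58 (adjusted p = 0.00234), but both differences were lost without array weights (adjusted p = 0.602 and 0.295).

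Cyp2b9, Cyp2b10 and Cyp2b13 encode cytochrome P450 enzymes that oxidise drugs, steroids and lipids. The probes lie on mm9 chromosome 7, plus strand, at 26995607 to 26995666 for Cyp2b9, 26711522 to 26711581 for Cyp2b10 and 26880905 to 26880964 for Cyp2b13. The genes are close relatives, so stretches of 30 bases of the 60-base probes are shown, with the longest run shared with another of them in capitals.
Cyp2b9: TAAGGTCTGAtttctatgtctacagacttg
Cyp2b10: gtgctaatggactctgtaTAAGGTCTGAat
Cyp2b13: ggaaactagactGTATGTtgctgctcacat
The Cyp2b9 and Cyp2b10 probes share a run of 10 bases, and Cyp2b13 shares at most 6 with either. The probes were compared only with each other and not with the transcripts of the related genes, so shared signal was not tested.

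Cyp2b9 signal was 5.28, 7.05 and 9.32 (lowest, median and highest) in CTRL mice and 10.96, 12.46 and 13.20 in HFD mice. No HFD mouse overlapped the CTRL mice, and the gene rose 43.0-fold (log2 change 5.43, standard error 0.59, adjusted p = 1.76e-08). The log2 change was 4.93 to 6.27 over 29 alternatives. Cyp2b13 signal was 4.76, 5.15 and 5.71 in CTRL mice, where 1 of 8 arrays was well above background, and 6.73, 8.68 and 9.62 in HFD mice. Again no mouse overlapped, and the fitted change was 3.67 (standard error 0.32, adjusted p = 6.42e-11). With the CTRL mice at background its size is uncertain, from 2.95 to 6.08 over 29 alternatives, all of them called. Cyp2b10, the usual reporter of CAR activity, was 5.40, 7.13 and 10.95 in CTRL mice and 10.45, 11.93 and 12.68 in HFD mice. Its groups overlapped only through CTRL replicate 1, which held the value of 10.95, and the rise was 4.91 (standard error 0.57, adjusted p = 6.64e-08). All 3 genes were also called without array weights. In PPARaWT mice Cyp2b9 rose by 4.77 and Cyp2b10 by 4.18, and neither response differed from that of PPARaLKO mice (adjusted p = 0.691 and 0.634). Cyp2b13 changed by 0.72 in PPARaWT mice without a call, and its response was larger by 2.95 in PPARaLKO mice (adjusted p = 0.000204, and 0.0407 without weights). In PPARaKO mice none of the 3 genes was called, and their responses were larger in PPARaLKO mice by 6.08, 5.37 and 3.60 for Cyp2b9, Cyp2b10 and Cyp2b13 (adjusted p = 5.07e-05, 0.000118 and 1.27e-05), of which that of Cyp2b10 was lost without weights (adjusted p = 0.0555).

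Genes of the wider CAR and PXR group were called in both directions. Of 33 tested P450 and conjugation genes 8 rose and 5 fell, with a median change of 0.0044 against -0.0044 over all genes, and without weights 3 rose and 1 fell, with a median of 0.14. The mean level over the list was 12.80 to 13.12 in CTRL mice and 13.20 to 13.52 in HFD mice, without overlap. Large changes of few members can move such a mean. The weighted median change of 0.0044 shows no shift of the typical member. Gsta2, a glutathione transferase, rose by 1.82 (adjusted p = 0.000818), although CTRL replicate 1 had the highest signal of all 16 mice, 15.03, and the call was lost without weights (adjusted p = 0.25). Cyp2c38 fell by 1.92 (adjusted p = 7.83e-07). Nr1i3, which encodes CAR, changed by 0.34 (adjusted p = 0.0838) and Cyp3a11, the standard PXR target, by -0.45 (adjusted p = 0.467).

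**Figure D2:**
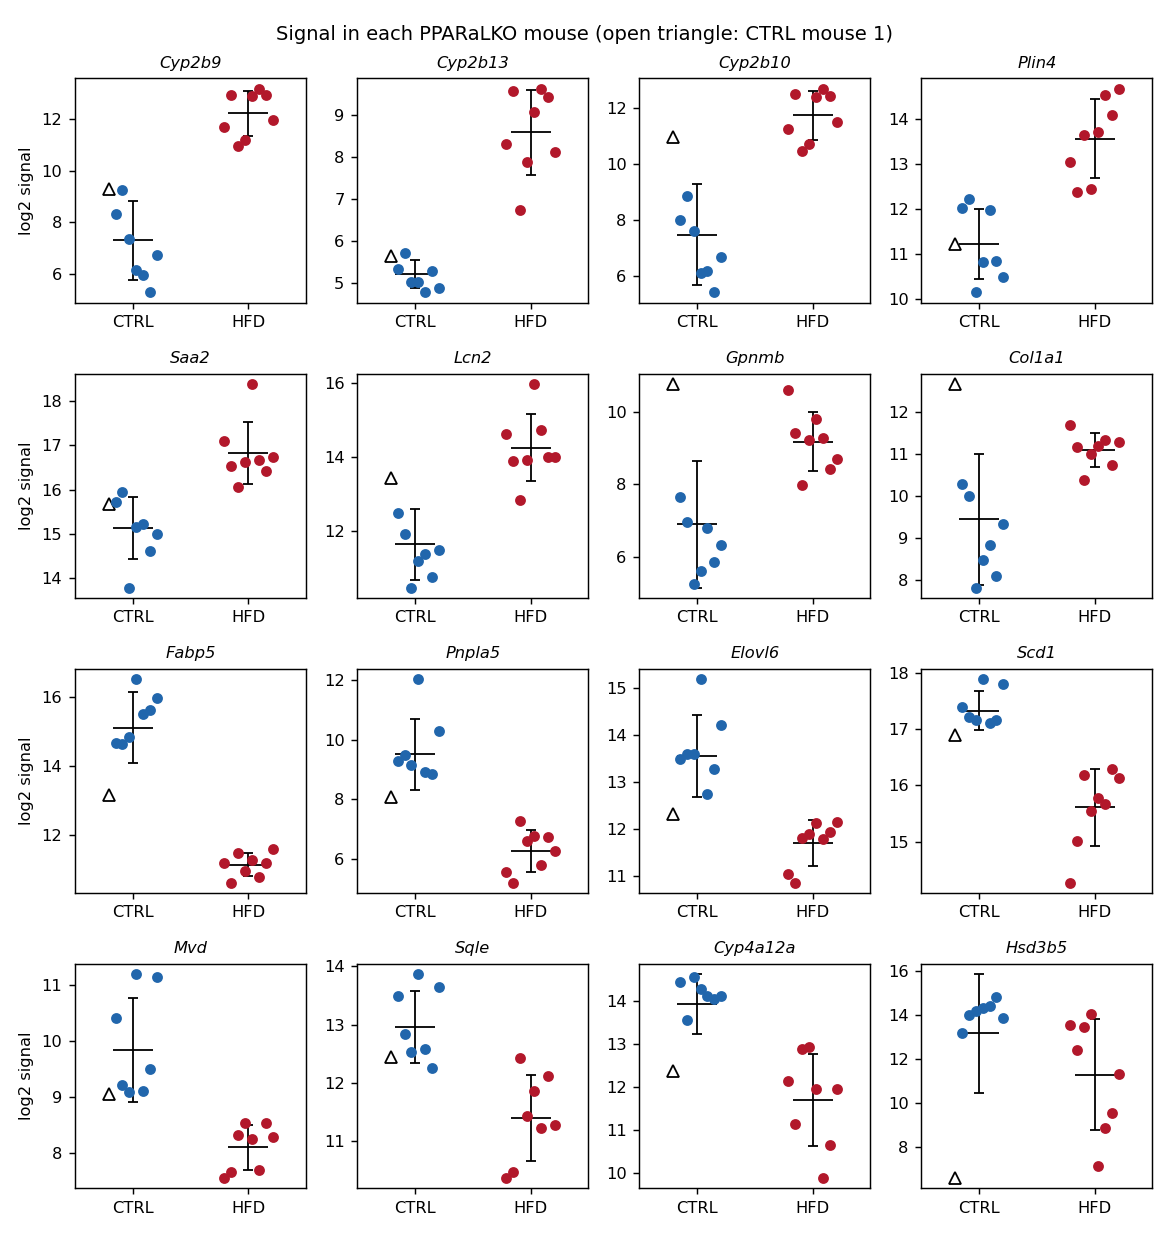
Log2 signal of single PPARaLKO mice for genes named in the text, CTRL beside HFD, with 1 point per mouse, a dash and bars for the mean and SD of the group, and an open triangle for CTRL replicate 1. The Cyp2b9, Plin4, Fabp5 and Mvd groups do not overlap, and CTRL replicate 1 reaches the HFD range for Cyp2b10, Gpnmb and Col1a1.

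Other genes rose in all 8 HFD mice above all 8 CTRL mice. Plin4, a perilipin that coats lipid droplets, was 10.14, 11.03 and 12.23 in CTRL mice and 12.37, 13.67 and 14.68 in HFD mice, a rise of 2.65 (standard error 0.43, adjusted p = 2.11e-05). Pcp4l1 rose by 1.81, Myom3 by 1.74, Dio1, the deiodinase that activates thyroid hormone, by 1.57 and Gpc1, a cell surface proteoglycan, by 1.48. Grin3b, Gm42035, the carboxylesterase gene Ces1b, the laminin gene Lamb3 and Aox1, an aldehyde oxidase, rose by 1.04 to 1.41. These 9 genes were also called without weights. The acute-phase genes Saa1 and Saa2, which rose by 1.97 each without overlap, were not (adjusted p = 0.0816 and 0.0673).

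Of the genes that fell without overlap, Fabp5, a fatty acid binding protein, fell the most. It was 13.16, 15.18 and 16.52 in CTRL mice and 10.64, 11.21 and 11.62 in HFD mice, a 19.0-fold fall (log2 change -4.25, standard error 0.35, adjusted p = 2.43e-11). A probe without a gene symbol, NAP114472-1, fell by 4.31 beside it. Of the 60 bases of the 2 probes a run of 50 is the same, part of which is shown in capitals, so they are not separate results.
Fabp5 and NAP114472-1: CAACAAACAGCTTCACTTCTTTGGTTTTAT
Pnpla5, a triglyceride lipase, fell by 3.44 (adjusted p = 7.88e-07) and Tff3, a trefoil peptide, fell by 3.43 (adjusted p = 6.05e-06). Ppp1r3g, which directs a phosphatase to glycogen, fell by 2.46, the nicotinic receptor subunit Chrna4 fell by 2.44, Srgap3 fell by 2.22, Pdzk1ip1 fell by 2.13 and Slc16a11, a monocarboxylate carrier, fell by 1.79. All of these were also called without weights. For Srgap3 and Slc16a11 PPARaWT mice changed by -0.07 and 0.35 without a call, and the response differed in PPARaLKO mice by -2.15 and -2.14 (adjusted p = 7.27e-05 and 1.59e-06, called also without weights). Gm28548 was well above background on 7 CTRL arrays and on 0 HFD arrays. Its signal was at least 2.76-fold lower on the HFD, measured against the lowest signal well above background (fitted log2 change -2.22, adjusted p = 6.1e-07, and from -4.95 to -1.55 over 28 alternatives).

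Most genes of cholesterol synthesis fell. Of 25 tested genes of the pathway and its regulators 20 fell and 0 rose in limma, 80% against a background of 11.3%, and 23 were lower at an unadjusted p below 0.05 while 0 were higher. The median change was -0.90. Without weights 18 fell, and with CTRL replicate 1 also left out 19 fell. The mean signal over the 25 genes was 12.00 to 13.15 in CTRL mice and 11.20 to 11.99 in HFD mice, so the groups did not overlap. CTRL replicate 1 was the lowest CTRL mouse. The list had a median change of -0.37 in the first wash batch and -1.17 in the second.

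Genes of early and of late steps fell. Among the mevalonate enzymes, Pmvk was 13.60, 13.79 and 14.98 in CTRL mice and 12.10, 12.75 and 13.44 in HFD mice, and fell by 1.35 (adjusted p = 1.07e-05). Mvd, which makes isopentenyl diphosphate, was 9.05, 9.36 and 11.19 in CTRL mice and 7.57, 8.28 and 8.54 in HFD mice, and fell by 1.86 (standard error 0.29, adjusted p = 1.47e-05). For these genes, Pmvk and Mvd, the 2 groups did not overlap. Sqle, the squalene epoxidase, fell by 1.56 (adjusted p = 0.000287), with 12.25, 12.71 and 13.87 in CTRL mice and 10.38, 11.36 and 12.43 in HFD mice. Of the late sterol enzymes, Nsdhl fell by 1.06 (adjusted p = 0.000739) and Msmo1 by 0.90 (adjusted p = 0.00115). Members that were not called included Hmgcs1, a synthase of an early step, with a change of -0.69 (adjusted p = 0.0534), and Srebf2, which encodes SREBP2, with -0.17 (adjusted p = 0.0645).

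In PPARaWT mice the same list moved the other way, with 10 genes called higher (background 10.6%). The diet response of 20 of the 25 genes differed between PPARaLKO and PPARaWT mice in limma (background 12.3% of genes), and 18 of the 25 without weights (background 1.08%). Msmo1 rose by 1.70 in PPARaWT mice, from a median of 12.86 on the CTRL diet to 14.50 on the HFD, and all PPARaWT HFD mice were above all PPARaWT CTRL mice. In PPARaLKO mice its medians were 13.71 and 13.24, and the response, PPARaLKO minus PPARaWT, differed by -2.59 (standard error 0.31, adjusted p = 8.35e-07). Nsdhl rose by 1.38 and Hmgcs1 by 1.60 in PPARaWT mice, and their responses differed in PPARaLKO mice by -2.44 and -2.29 (adjusted p = 2.19e-05 and 0.000328). The corresponding differences were -2.41 for Sqle, -2.22 for Mvd and -1.87 for Pmvk. Srebf2 itself rose by 0.29 in PPARaWT mice and responded lower by 0.46 in PPARaLKO mice (adjusted p = 0.00345), a difference that was lost without weights. In PPARaKO mice 5 of the 25 genes fell (backgrounds 12.5% lower and 15.3% higher). The response differed from that of PPARaKO mice for 8 genes (background 3.27%), but for 0 without weights (background 0.265%), where 12 passed an unadjusted p of 0.05 in limma (background 10%).

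**Figure D3:**
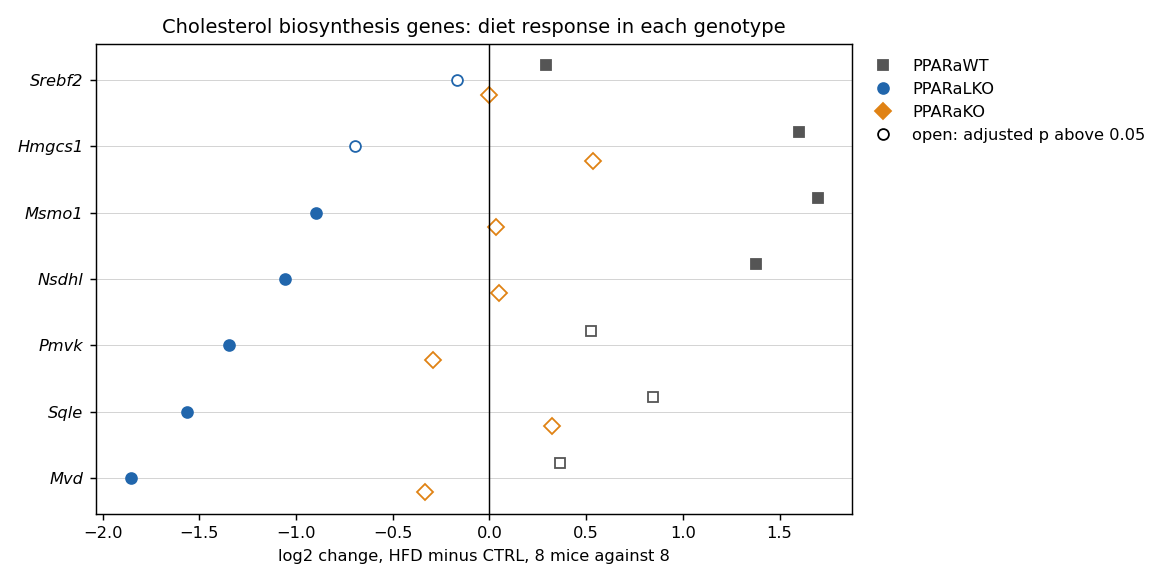
Log2 change on the HFD for the 7 cholesterol genes named in the text in PPARaLKO mice (circles), PPARaWT mice (squares) and PPARaKO mice (diamonds). Filled points were called and open points were not. In PPARaLKO mice the points lie below 0, down to -1.86 for Mvd, while in PPARaWT mice Msmo1, Hmgcs1 and Nsdhl lie above 1.

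The sterol genes are known to be activated by SREBP2 together with NF-Y, which binds the sequence CCAAT. Promoter sequence was available for 17 of the 25 genes in RefSeq (GRCm38.p6, 250 bases before to 50 after the start). All 17 held CCAAT on either strand, compared with 41.1% of 27025 symbols, 15 of 23 lipogenesis genes and 16 of 32 PPARα target genes. The sterol element TCACNCCAC, searched on both strands, was found in 1 of the 17, 1 of the 23 lipogenesis genes and 3 of the 32 PPARα target genes, against 1.44% of all symbols. The 150 bases before the start are shown for 5 genes whose response differed from PPARaWT mice, 5′ to 3′ on the strand of the gene, with CCAAT, its complement ATTGG and the sterol element in capitals.
Mvd, chr8:122443423-122443572, minus strand: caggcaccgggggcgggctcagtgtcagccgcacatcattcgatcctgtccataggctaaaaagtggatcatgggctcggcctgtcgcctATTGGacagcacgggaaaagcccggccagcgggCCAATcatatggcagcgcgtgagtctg
Pmvk, chr3:89454391-89454540, plus strand: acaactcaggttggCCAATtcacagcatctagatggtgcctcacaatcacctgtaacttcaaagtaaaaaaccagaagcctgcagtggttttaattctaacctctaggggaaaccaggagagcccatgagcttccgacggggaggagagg
Hmgcs1, chr13:119690201-119690350, plus strand: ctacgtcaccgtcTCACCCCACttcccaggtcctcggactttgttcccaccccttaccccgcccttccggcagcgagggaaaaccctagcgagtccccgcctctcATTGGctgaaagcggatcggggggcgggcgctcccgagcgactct
Msmo1, chr8:64733579-64733728, minus strand: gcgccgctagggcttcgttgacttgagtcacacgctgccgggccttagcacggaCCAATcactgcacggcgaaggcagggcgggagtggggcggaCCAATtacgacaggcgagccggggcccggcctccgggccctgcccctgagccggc
Nsdhl, chrX:72918371-72918520, plus strand: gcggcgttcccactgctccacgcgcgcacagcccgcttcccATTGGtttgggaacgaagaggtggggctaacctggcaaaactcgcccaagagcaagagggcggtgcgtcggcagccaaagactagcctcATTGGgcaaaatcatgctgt
Mvd, Msmo1 and Nsdhl hold CCAAT at 2 places in this window and Pmvk and Hmgcs1 at 1, and Hmgcs1 is the gene with the sterol element. These are matches of letters, and binding was not measured.

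Genes of fatty acid synthesis and desaturation fell as well. Of 28 tested 14 fell and 2 rose, with a median change of -0.54, and without weights 8 fell and 1 rose. Elovl6, which elongates palmitate, was 12.31, 13.53 and 15.19 in CTRL mice and 10.85, 11.84 and 12.13 in HFD mice, and fell by 1.98 (standard error 0.27, adjusted p = 1.43e-06). Scd1, the main liver desaturase, was 16.89, 17.19 and 17.89 in CTRL mice and 14.27, 15.72 and 16.29 in HFD mice, and fell by 1.85 (adjusted p = 0.000346). For both genes every HFD mouse was below every CTRL mouse. Fasn, the fatty acid synthase, fell by 1.47 (adjusted p = 0.000713), Acss2, which makes acetyl-CoA from acetate, by 1.49 (adjusted p = 1.64e-06), and Scd3 by 2.08. Pnpla3, a lipase that follows lipogenesis, fell by 1.89 (adjusted p = 0.00219), with a range of 6.38 to 11.56 in CTRL mice and 5.46 to 6.27 in HFD mice.

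Srebf1, which encodes SREBP1, was not called, with a change of 0.36 (adjusted p = 0.145). Compared with PPARaWT mice, the response of 7 of the 28 genes differed (background 12.3%), and of 1 without weights (background 1.08%). Acss2 was called in both, lower by 1.79 in PPARaLKO mice (adjusted p = 0.000317). Elovl6, Scd1 and Fasn fell in PPARaWT mice too, by 1.43, 1.23 and 1.09, and no difference from PPARaLKO mice was called for them. Compared with PPARaKO mice 5 genes differed (background 3.27%), and 3 without weights (background 0.265%). Scd1 fell less in PPARaLKO mice, by 2.31 (adjusted p = 0.00871), since it fell by 4.16 in PPARaKO mice.

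PPARα target genes rose in part. Of 42 tested 23 rose and 2 fell, with a median change of 0.38, and 12 rose and 1 fell without weights. The list level was 12.45 to 13.15 in CTRL mice and 12.77 to 13.32 in HFD mice, and CTRL replicate 1 was the highest CTRL mouse. Ech1, an isomerase of unsaturated fatty acid oxidation, was 13.26, 13.76 and 14.31 in CTRL mice and 14.57, 14.67 and 15.06 in HFD mice. Every HFD mouse was above every CTRL mouse, and the gene rose by 0.99 (standard error 0.12, adjusted p = 3.81e-07). Pex11a, which divides peroxisomes, rose by 0.99 (adjusted p = 0.000119). Both genes also rose in PPARaWT mice, and no difference in response was called. Cpt1a, which brings fatty acids into mitochondria, changed by 0.35 (adjusted p = 0.0534). The 2 that fell were Cyp4a12a, which is also a male-biased gene, and Ehhadh, the peroxisomal bifunctional enzyme, by 0.42 (adjusted p = 0.0486), a call that was lost under 20 of 29 alternatives.

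Several well-known PPARα targets were not called in PPARaLKO mice. Acot3, a peroxisomal thioesterase, was 10.78, 11.47 and 12.24 in CTRL mice and 10.43, 11.80 and 12.24 in HFD mice, a change of 0.11 (adjusted p = 0.907), while it rose by 2.32 in PPARaWT mice. Acot2, its mitochondrial relative, changed by 0.59 (adjusted p = 0.187) against a rise of 2.04 in PPARaWT mice, Cyp4a10, an omega-hydroxylase, by 0.20 (adjusted p = 0.813) against 2.50, and Fitm1, a lipid droplet protein, by -0.12 (adjusted p = 0.814) against 1.53. The difference in response was called for Acot2 (adjusted p = 0.0488), Cyp4a10 (adjusted p = 0.0391) and Fitm1 (adjusted p = 0.0189), but not for Acot3 (adjusted p = 0.0601). Cyp4a14 rose by 1.06 in PPARaLKO mice (adjusted p = 0.0283, a call lost under 10 of 29 alternatives) and by 2.56 in PPARaWT mice, with no call for the difference (adjusted p = 0.0705). In all, 9 of the 42 genes differed between PPARaLKO and PPARaWT mice (background 12.3%) and 0 differed between PPARaLKO and PPARaKO mice (background 3.27%) in limma. Without weights 0 differed in either comparison (backgrounds 1.08% and 0.265%). At an unadjusted p below 0.05 these counts were 17 and 8 with weights and 5 and 5 without, near the shares of all genes except for the 17. Vnn1, the pantetheinase, rose by 1.64 in PPARaLKO mice (adjusted p = 0.000349, and 0.0525 without weights) and by 2.39 in PPARaWT mice (difference 0.76 lower, adjusted p = 0.343). Fgf21, a hormone of the fasted and stressed liver, rose by 1.25 (adjusted p = 0.0113), but CTRL replicate 1, at 9.61, exceeded every HFD mouse (6.14 to 7.97), and without weights the adjusted p was 0.542.

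Fewer peroxisomal genes were called than in PPARaWT mice. Of 39 tested 11 rose and 2 fell, and 5 rose without weights, against 23 that rose in PPARaWT mice (backgrounds 10.6% higher and 9.82% lower in PPARaWT mice). The mean level over the list was at most 13.08 in CTRL mice and at least 13.10 in HFD mice. In limma 10 responses differed between these genotypes, with 17 at an unadjusted p below 0.05 (background 29%), and 0 without weights, where 5 passed an unadjusted p of 0.05 (background 14.3%). Amacr, which converts branched fatty acids and bile acid intermediates, rose by 1.03 (adjusted p = 0.000129) and its response was larger than in PPARaKO mice by 1.47 (adjusted p = 0.00108, called also without weights).

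Fat storage genes were more often higher than lower. Of 28 tested 11 rose and 3 fell, with a median change of 0.31, and without weights 2 rose and 2 fell, with 11 higher and 3 lower at an unadjusted p below 0.05 (backgrounds 8.5% and 8.84%). Beside Plin4, Cidec, which fuses lipid droplets, was 8.78, 10.25 and 13.10 in CTRL mice and 11.87, 12.43 and 14.30 in HFD mice, and rose by 2.68 (standard error 0.54, adjusted p = 0.00045). CTRL replicate 1 held the value of 13.10, and the call was lost without weights (adjusted p = 0.109). Plin5 rose by 1.28 and Plin2 by 0.69 (adjusted p = 0.00141 and 0.00398), calls that were lost without weights, and Pparg, the receptor of fat storage, rose by 0.94 (adjusted p = 0.0018, and 0.0634 without weights). Abhd5, the activator of triglyceride lipolysis, fell by 0.49 (adjusted p = 0.00085). Pparg and Plin2 rose to a like extent in PPARaWT mice (1.17 and 0.72) and PPARaKO mice (1.19 and 0.76). In limma 2 of the 28 responses differed from PPARaWT mice (background 12.3%), with 13 at an unadjusted p below 0.05 (background 29%). Without weights these counts were 0 (background 1.08%) and 4 (background 14.3%).

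**Figure D4:**
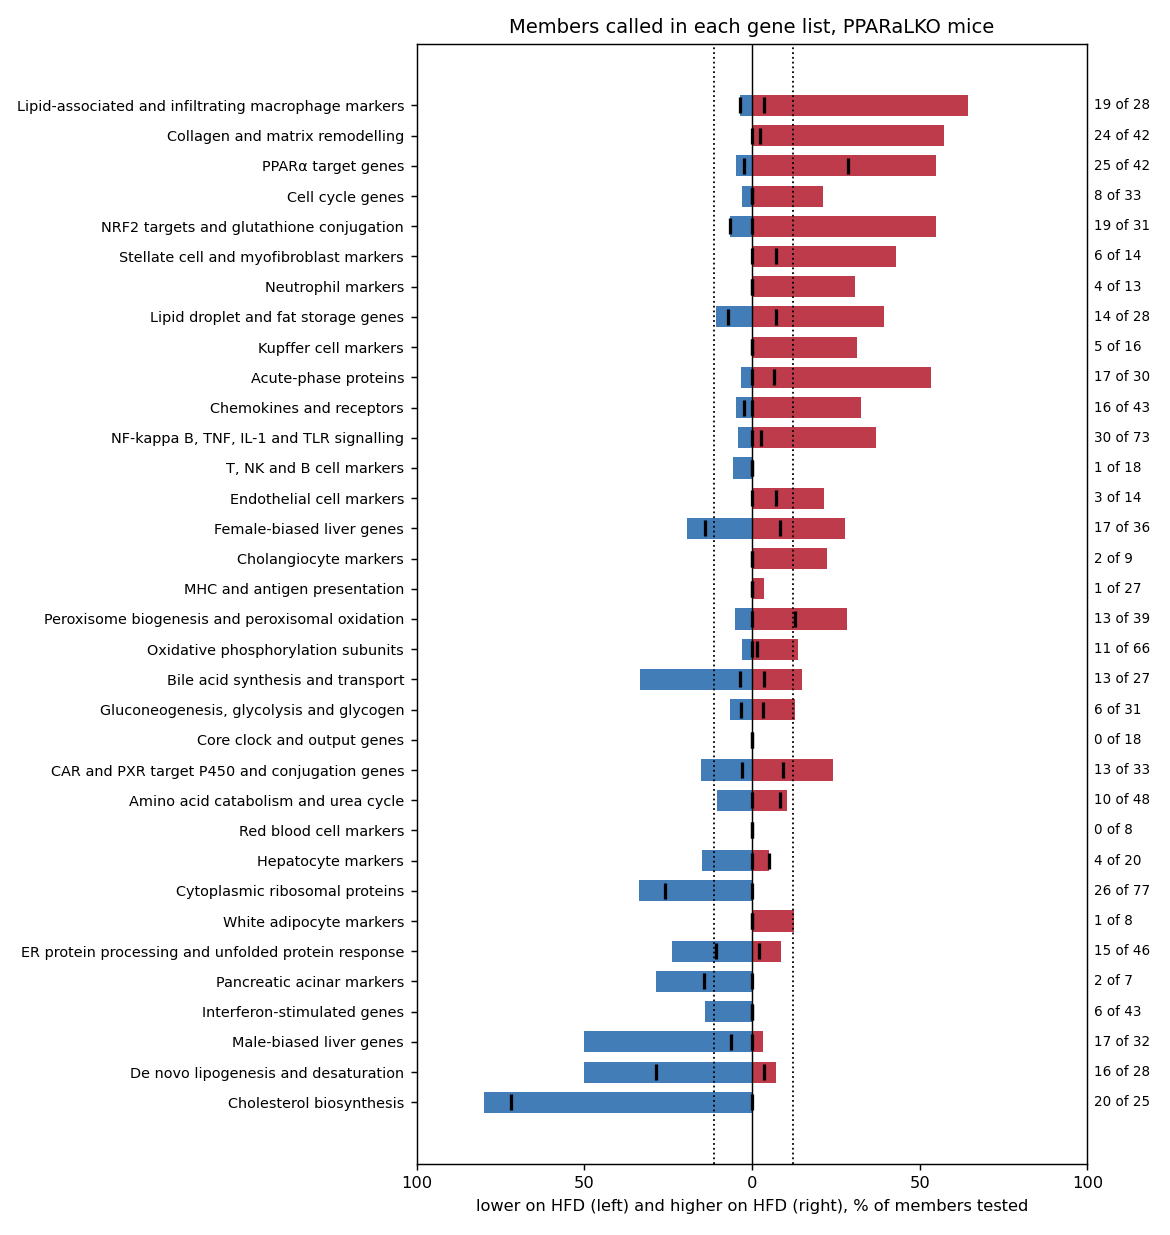
Percent of tested members of each gene list that were higher (right) or lower (left) on the HFD in PPARaLKO mice, with dotted lines at the share of all genes (12.3% and 11.3%) and black ticks at the share called without array weights. Cholesterol biosynthesis reaches 80% lower, and the macrophage and collagen lists reach 64.3% and 57.1% higher.

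Male-biased liver genes, which in mice are kept high by the male pattern of growth hormone, were more often lower than higher. Of 32 tested 16 fell and 1 rose, with a median change of -0.46, which was 0.10 in the first wash batch and -0.69 in the second. Without weights 2 fell and 0 rose, while 9 were lower and 2 higher at an unadjusted p below 0.05. CTRL replicate 1 was the lowest CTRL mouse for 23 of the 32, and without it and without weights 6 fell. Cyp4a12a and Cyp4a12b, which make the hydroxylated arachidonic acid product of male mice, fell by 2.87 and 2.83 (adjusted p = 3.35e-07 and 3.95e-07) and were called under each of these settings. Cyp4a12a was 12.38, 14.11 and 14.55 in CTRL mice and 9.90, 11.95 and 12.93 in HFD mice, and only CTRL replicate 1 lay in the HFD range. Its response was lower than in PPARaWT mice by 2.37 (adjusted p = 0.00516), a difference that was lost without weights. Hsd3b5, a steroid dehydrogenase, was 6.60 in CTRL replicate 1 and 13.17 to 14.81 in the other CTRL mice, and 7.15, 11.85 and 14.05 in HFD mice. It fell by 3.60 (adjusted p = 0.00127), but was higher on the HFD by 0.51 in the first wash batch, and without weights the call was lost (adjusted p = 0.459). Slco1a1, an organic anion carrier, fell by 1.29 (adjusted p = 0.00599) with the same pattern, a difference of 0.37 in the first wash batch. Moxd1 was well above background on 6 CTRL arrays and 2 HFD arrays, from 5.14 to 12.88 in CTRL mice and 4.85 to 6.39 in HFD mice, and the fitted fall was -4.93 (adjusted p = 0.000324, and 0.0587 without weights). With most HFD mice at background its size is uncertain, from -7.44 to -4.11 over 29 alternatives.

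Female-biased genes moved both ways. Of 36 tested 10 rose and 7 fell, with a median change of 0.13, and without weights 3 rose and 5 fell. The median was -0.13 in the first wash batch and 0.25 in the second. The calls were led by the 3 Cyp2b genes among those that rose and by Fabp5 and Chrna4 among those that fell.

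Bile acid genes were mixed, with 4 of 27 higher and 9 lower and a median change of 0.03. Without weights 1 rose and 1 fell. Cyp7a1, the rate-limiting enzyme of bile acid synthesis, changed by -0.05 (adjusted p = 0.946). Cyp8b1, which sets the share of cholic acid, changed by -0.08 (adjusted p = 0.885) but rose by 2.65 in PPARaWT mice, and its response was lower by 2.73 in PPARaLKO mice (adjusted p = 0.000226, and 0.109 without weights). Abcb4, the phospholipid exporter of bile, rose by 0.67 (adjusted p = 3.35e-05), and Cyp2c70, which makes muricholic acids, fell by 0.97 (adjusted p = 0.00113, and 0.0503 without weights). Of 31 genes of gluconeogenesis, glycolysis and glycogen 4 rose and 2 fell, and without weights 1 rose and 1 fell. G6pc, the last step of glucose release, fell by 1.14 (adjusted p = 0.00409, and 0.128 without weights). Of 48 genes of amino acid catabolism and the urea cycle 5 rose and 5 fell, and without weights 4 rose and 0 fell in limma (8 and 6 at an unadjusted p below 0.05). Agxt2, a mitochondrial transaminase, was 14.51, 14.62 and 14.91 in CTRL mice and 15.03, 15.25 and 15.33 in HFD mice. It rose by 0.63 without overlap (standard error 0.07, adjusted p = 1.12e-08), while Cps1, the first step of the urea cycle, fell by 0.53 (adjusted p = 0.0338), a call that was lost under 15 of 29 alternatives.

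Macrophage genes were more often higher than lower, but 1 CTRL mouse lay above the HFD range. Of 28 markers of lipid-associated and infiltrating macrophages 18 rose and 1, Fabp5, fell, with a median change of 0.85. CTRL replicate 1 exceeded every HFD mouse for 16 of the 28. Its list level was 11.98, and the CTRL median was 10.53. The other 7 CTRL mice lay between 10.04 and 10.87 and the HFD mice between 10.54 and 11.62, so these overlapped too. Without weights 1 rose and 1 fell, with 11 higher and 1 lower at an unadjusted p below 0.05 (backgrounds 8.5% and 8.84%), and with that mouse also left out 6 rose and 1 fell. In bulk tissue, more cells of a type and more RNA per cell cannot be told apart. Gpnmb, a glycoprotein of lipid-laden macrophages, was 10.77 in CTRL replicate 1 and 5.24 to 7.64 in the other CTRL mice, against 7.98, 9.25 and 10.61 in HFD mice. Every HFD mouse was above the other 7 CTRL mice, and the gene rose by 2.99 (standard error 0.54, adjusted p = 0.000103, 0.0726 without weights and 0.00797 without weights and that mouse). Trem2, the lipid receptor of these cells, rose by 1.81 (adjusted p = 0.00231), the elastase gene Mmp12 by 1.74 and the lysosomal membrane gene Cd63 by 1.68, calls that were lost without weights. Spp1 and Cd9, which also mark them, changed by 0.66 and 0.26 without a call (adjusted p = 0.197 and 0.292). Of 16 Kupffer cell markers 5 rose and 0 fell in limma, with 6 higher and 1 lower at an unadjusted p below 0.05. Without weights 0 were called and 0 passed an unadjusted p of 0.05, and CTRL replicate 1 exceeded every HFD mouse for 8. Adgre1, which encodes F4/80, rose by 0.65 (adjusted p = 0.022, and 0.507 without weights), while Clec4f, the marker of resident Kupffer cells, changed by -0.12 (adjusted p = 0.653).

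For collagen and matrix genes the same CTRL mouse lay above the HFD range. Of 42 tested 24 rose and 0 fell in limma, with 31 higher and 0 lower at an unadjusted p below 0.05, and the median change was 0.68. CTRL replicate 1 exceeded every HFD mouse for 29 of the 42. The list level of CTRL replicate 2, 9.47, also lay within the HFD range of 9.34 to 9.95. Without weights 1 rose, with 10 higher and 0 lower at an unadjusted p below 0.05 (background 8.5% higher), and with that mouse also left out 10 rose. Col1a1, the main fibrillar collagen, was 12.68 in CTRL replicate 1, with a CTRL median of 9.10, against 10.38, 11.19 and 11.69 in HFD mice. All HFD mice were above the other 7 CTRL mice, and the gene rose by 2.18 (standard error 0.48, adjusted p = 0.0011, 0.176 without weights and 0.0326 without weights and that mouse). Col1a2 rose by 1.67, Col3a1 by 1.56 and Timp1, an inhibitor of matrix proteases, by 1.00, and these calls were lost without weights. Of 14 markers of stellate cells and myofibroblasts 6 rose and 0 fell in limma, with 7 higher and 0 lower at an unadjusted p below 0.05. Without weights 1 rose, and CTRL replicate 1 exceeded every HFD mouse for 7. Acta2, smooth muscle actin, rose by 0.46 (adjusted p = 0.000516) and was called without weights too. The response of 4 collagen genes and 6 macrophage genes differed from that of PPARaWT mice (background 12.3%). At an unadjusted p below 0.05 these counts were 25 of 42 and 16 of 28 (background 29%). Without weights 0 of either list differed in limma, with 4 and 6 genes at an unadjusted p below 0.05 (background 14.3%). Of the single genes, the response of Gpnmb was larger by 2.97 (adjusted p = 0.0181) and that of Col1a1 by 1.71 without a call (adjusted p = 0.128).

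Genes of inflammatory signalling had a smaller median change than the collagen and macrophage lists. Of 73 genes of NF-kappa B, TNF, IL-1 and TLR signalling 27 rose and 3 fell, with a median change of 0.17 (0.05 in the first wash batch), and 2 rose without weights. CTRL replicate 1 had a list level of 9.65 against at most 9.55 in HFD mice, and exceeded every HFD mouse for 25 genes. Fos, an immediate early gene, was 6.71, 7.05 and 8.04 in CTRL mice and 7.82, 8.57 and 9.03 in HFD mice, and rose by 1.33 (adjusted p = 0.000292, and 0.00959 without weights). Tnfaip3, a brake on NF-kappa B, rose by 1.24, Jun by 1.03 and Tlr2, a receptor of bacterial lipoproteins, by 1.00 (adjusted p = 0.000143, 0.000424 and 0.0036), and these calls were lost without weights. The brighter Tnf probe changed the other way and fell by 0.48 (adjusted p = 0.0387), a call that was lost under 14 of 29 alternatives, while a second probe changed by 0.22. Of 43 chemokines and receptors 14 rose and 2 fell, and CTRL replicate 1 exceeded every HFD mouse for 27. Without weights 0 rose and 1 fell in limma, with 5 higher and 2 lower at an unadjusted p below 0.05. Ccl2, which attracts monocytes, rose by 1.53 (adjusted p = 0.00358, and 0.214 without weights), with 10.73 in CTRL replicate 1 above all HFD mice. Ccl9 fell by 0.93 (adjusted p = 1.63e-05, and 0.00148 without weights).

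Acute-phase genes, which hepatocytes secrete in inflammation, rose in 16 of 30 cases and fell in 1, with a median change of 0.29. Here CTRL replicate 1 was not above the HFD mice: the list level was 14.31 to 14.60 in CTRL mice, with that mouse at 14.60, and 14.73 to 15.48 in HFD mice, so the groups did not overlap. Without weights 2 rose, with 12 higher and 1 lower at an unadjusted p below 0.05 (backgrounds 8.5% and 8.84%), and 5 rose when that mouse was also left out. Lcn2, lipocalin, was 10.46, 11.43 and 13.42 in CTRL mice and 12.82, 14.01 and 15.99 in HFD mice, and rose by 3.19 (standard error 0.59, adjusted p = 0.00015, and 0.0503 without weights). Saa2 was 13.79, 15.19 and 15.93 in CTRL mice and 16.06, 16.64 and 18.38 in HFD mice. The response of Saa1 and Saa2 did not differ by a call from that of PPARaWT mice, with differences of 1.79 and 1.71 (adjusted p = 0.115 and 0.118). The metallothionein Mt2 rose by 1.64 (adjusted p = 0.022, and 0.324 without weights).

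**Figure D5:**
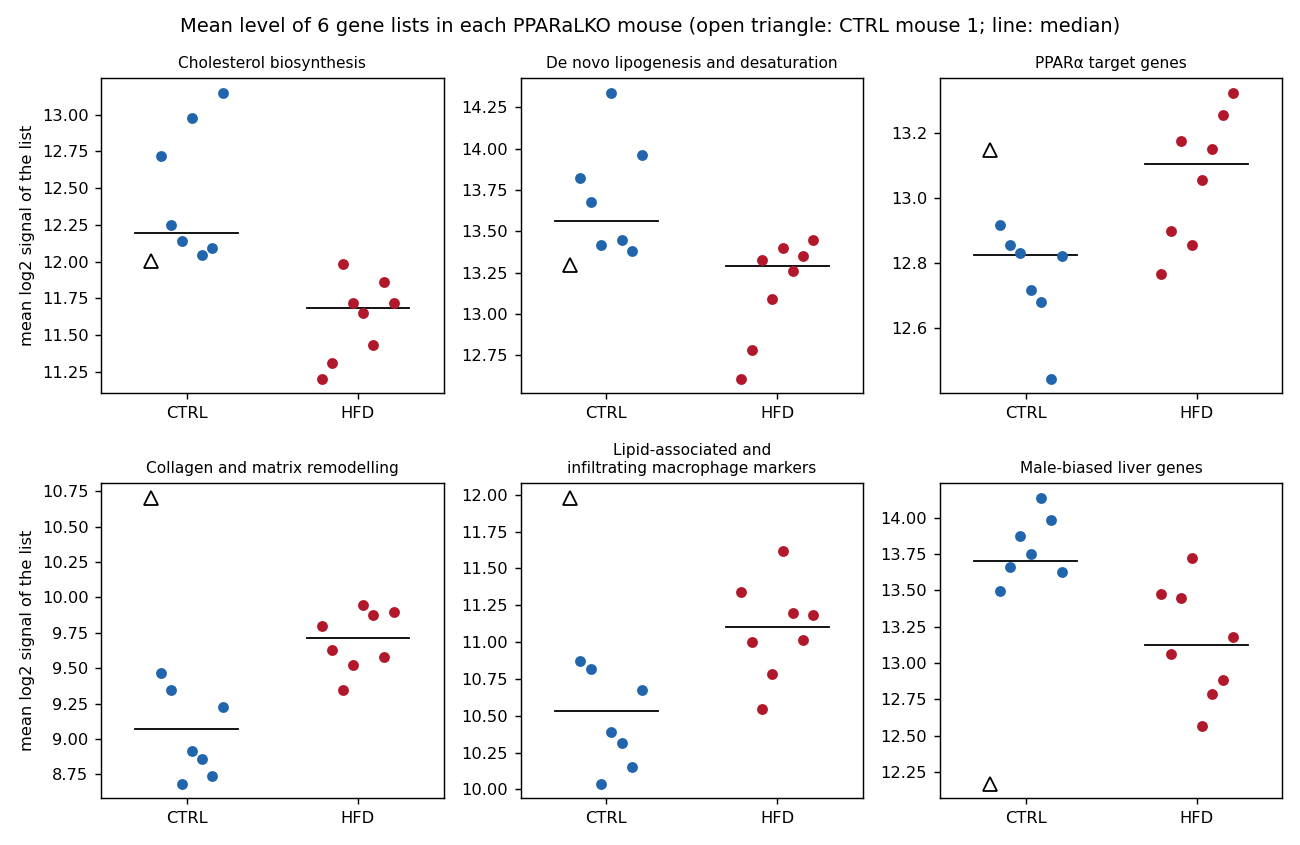
Mean log2 signal over the tested members of 6 gene lists in each PPARaLKO mouse, CTRL beside HFD, with a line at the median and an open triangle for CTRL replicate 1. The cholesterol levels do not overlap between the diets, whereas CTRL replicate 1 is the highest of all 16 mice for the macrophage and collagen lists.

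Genes of protein folding and stress were called in both directions. Of 46 genes of protein processing in the endoplasmic reticulum 4 rose and 11 fell, and 31 fell in PPARaWT mice (background 9.82%). Without weights 1 rose and 5 fell. The response of 9 differed from PPARaWT mice (background 12.3%), with 25 at an unadjusted p below 0.05 (background 29%). Without weights the response of 0 differed in limma, where 10 passed an unadjusted p of 0.05 (background 14.3%). Manf, a secreted factor of the unfolded protein response, fell by 0.86 (adjusted p = 7.76e-05) and Hspa5, the BiP chaperone, by 0.41 (adjusted p = 0.00873), whereas Chac1 and Atf3, of the amino acid branch of that response, rose by 1.33 and 1.31 (adjusted p = 0.00129 and 0.000732). The calls of Hspa5 and Atf3 were lost without weights. The fall of Hspa5 was smaller by 0.53 than in PPARaWT mice, where it fell by 0.94 (adjusted p = 0.0477 for the difference, and 0.422 without weights). Of 77 ribosomal protein genes 26 fell and 0 rose in limma, with 37 lower and 0 higher at an unadjusted p below 0.05, but the median change was -0.08 and CTRL replicate 1 exceeded every HFD mouse for 75 of them. Without weights 20 fell, with 43 lower at an unadjusted p below 0.05 (background 8.84%), and with that mouse also left out 11 fell. Rpl28 fell by 0.27 (adjusted p = 0.000192), and 63 of the 77 genes fell in PPARaWT mice (background 9.82%). The response of 32 differed from PPARaKO mice, in which 36 rose (background 3.27%), and of 5 without weights (background 0.265%). At an unadjusted p below 0.05 the responses of 59 differed with weights (background 17.1%) and of 61 without (background 10%). Of 31 NRF2 and glutathione genes 17 rose and 2 fell, and without weights 0 rose and 2 fell (7 and 2 at an unadjusted p below 0.05). The list level of CTRL replicate 1 was 13.31, above the 12.74 to 13.15 of the HFD mice, and it exceeded every HFD mouse for 12 genes. Cbr3, a carbonyl reductase, rose by 1.55 and Nqo1, the quinone reductase, by 0.78 (adjusted p = 0.00105 and 0.00892), with CTRL replicate 1 the highest CTRL mouse for both. Of 66 subunits of oxidative phosphorylation 9 rose and 2 fell, and without weights 1 rose and 0 fell in limma (13 and 0 at an unadjusted p below 0.05). Cell cycle genes rose in 7 of 33 cases and fell in 1, with CTRL replicate 1 above all HFD mice for 30 of the 33 and a median change of -0.12 in the first wash batch and 0.24 in the second. At an unadjusted p below 0.05, 20 were higher and 1 lower (background 19.1% higher), and with that mouse left out and weights kept 17 rose and 1 fell. None was called without weights in limma, where 0 were higher and 1 lower at an unadjusted p below 0.05.

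Markers of other cell types were counted to describe what the tissue samples held. In limma 4 of 13 neutrophil markers rose and 0 fell, 0 of 18 T, NK and B cell markers rose and 1 fell, 1 of 27 genes of antigen presentation rose and 0 fell, and 0 of 43 interferon-stimulated genes rose while 6 fell. At an unadjusted p below 0.05 these lists had 7 higher and 2 lower, 0 and 2, 8 and 4, and 1 and 15 genes in the same order (backgrounds 19.1% and 18.1%). Without weights 0 genes of these 4 lists were called in limma, and at an unadjusted p below 0.05 they had 2 higher and 0 lower, 0 and 1, 1 and 1, and 0 and 6 (backgrounds 8.5% and 8.84%). In PPARaKO mice 22 interferon-stimulated genes rose and 2 fell, and 8 responses differed from PPARaLKO mice, 0 without weights (22 at an unadjusted p below 0.05, background 10%). Endothelial markers rose in 3 of 14 cases, cholangiocyte markers in 2 of 9 and white adipocyte markers in 1 of 8, with 0 lower in each list, and 4, 2 and 1 were higher and 0, 1 and 3 lower at an unadjusted p below 0.05. Of 7 pancreatic acinar markers 2 fell and 0 rose, 0 of 8 red blood cell markers and 0 of 18 clock genes were called either way, and at an unadjusted p below 0.05 these lists had 3, 0 and 1 lower and 0 higher. Without weights 1 endothelial marker rose, 1 acinar marker fell, and 0 cholangiocyte and adipocyte markers were called in limma, with 1 higher and 1 lower in each at an unadjusted p below 0.05. Hepatocyte markers, which check the labelled tissue, were 1 of 20 higher and 3 lower, with 2 higher and 8 lower at an unadjusted p below 0.05. Without weights 1 was higher and 0 lower in limma, with 1 higher and 6 lower at an unadjusted p below 0.05. Their list level was 16.25 to 16.54 in CTRL mice and 16.12 to 16.49 in HFD mice. The median change of T, NK and B cell, antigen presentation, endothelial and cholangiocyte markers was -0.08, -0.12, -0.05 and -0.41 in the first wash batch and 0.18, 0.08, 0.25 and 0.02 in the second. Apart from the endothelial markers, CTRL replicate 1 had a level of these lists above every HFD mouse.

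The diet response differed between PPARaLKO and PPARaWT mice at 3472 probes and between PPARaLKO and PPARaKO mice at 1139, with 182 probes in both sets, and at 298 and 110 probes without weights. Among genes called in PPARaLKO mice 911 differed from PPARaWT and 273 from PPARaKO mice. In 152 genes the diet effect was called in both genotypes with opposite signs, of which 51 were higher in PPARaLKO and lower in PPARaWT mice and the others the reverse. Beside the sterol genes, Pax2 fell by 2.16 in PPARaLKO mice (a call lost without weights, adjusted p = 0.382), with CTRL replicate 1 the lowest CTRL mouse, and responded lower than in PPARaWT mice by 3.20 (adjusted p = 0.00638, and 0.228 without weights), and Gm21286 fell by 1.06 (a call lost without weights, adjusted p = 0.497), although it was higher by 0.34 in the first wash batch, and responded lower by 2.53 (adjusted p = 0.00015, a difference called also without weights). Larger responses than in PPARaWT mice were found for Lrtm2 (2.49), Lpl, the lipoprotein lipase (2.43), Gipc2 (1.98) and Sparcl1 (1.83), and in each of these 4 genes CTRL replicate 1 was the highest CTRL mouse and the difference was lost without weights. Lpl rose by 1.17 in PPARaLKO mice (adjusted p = 0.49 without weights) and fell by 1.26 in PPARaWT mice. Compared with PPARaKO mice, Pltp, the phospholipid transfer protein, fell by 1.81 in PPARaLKO mice and rose by 0.60 in PPARaKO mice, a difference of 2.41 (adjusted p = 1.27e-05, called also without weights). Rbm24, an RNA binding protein, had a fitted rise of 1.47 in PPARaLKO mice, in which CTRL replicate 1 was above every HFD mouse, and of 3.51 in PPARaKO mice (difference 2.04 lower, adjusted p = 5.07e-05). With 1 of 8 PPARaLKO CTRL arrays well above background, the size of the change in PPARaLKO mice is uncertain, from 1.02 to 3.46 over 29 alternatives. Agpat9, an acyltransferase of triglyceride synthesis, rose by 2.90 and the cell cycle inhibitor Cdkn1a by 1.82, and their responses were larger than in PPARaKO mice by 3.61 and 3.004 (adjusted p = 0.000559 and 0.00652), with CTRL replicate 1 the highest CTRL mouse for both. Without weights both differences were lost (adjusted p = 0.22 and 0.253). The call of Cdkn1a in PPARaLKO mice was lost under 4 of 29 alternatives, among them no weights (adjusted p = 0.317) and leaving out HFD replicate 6, and that of Agpat9 was kept without weights (adjusted p = 0.0354). The comparisons of response share the PPARaLKO mice and are not independent of each other.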

How the data were processed

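Liver RNA of 48 mice was hybridised to 1-colour Agilent arrays. The raw files hold, per the file headers, spot intensity and background intensity from Agilent Feature Extraction 10.10.1.1, together with flags (other values) that the authors' scanner software set for control spots, outliers, saturation and signal above background. The authors also deposited a log2 table of 32816 probes, which was used as an alternative. Its columns had a median of 7.91 each and correlated at 0.9994 to 0.9995 with the normalized values of the same arrays, so scale and direction were settled and only the exact filter stays unknown.

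Median intensities were taken as log2, outlier spots were dropped and spots of 1 probe were averaged. Of 56605 probes, those flagged as above background in 4 or more of 8 mice of any group were kept (33323 probes, 22029 gene names, 195 missing values), and arrays were quantile normalized. Following the study's methods, array weights and 1 limma model (3.58.1, R 4.3.3) over the 6 groups were used. The study corrected the values for the wash batch beforehand, whereas here wash batch was a term of the model, and p-values were adjusted by Benjamini-Hochberg over all probes at a threshold of 0.05. Probes with missing values were fitted on the remaining arrays. A difference in response is the diet effect in PPARaLKO mice minus that in the other genotype. The unit was the mouse, and the number of arrays limits the precision. The fit was tested on simulated data.

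A gene was represented by its brightest tested probe. Named genes were Ppara, the 14 largest increases and decreases without overlap between the diets, 9 genes that the study names, up to 4 called members per direction of each of 34 gene lists with the members that define a list, and the 6 largest differences in response per direction for each genotype contrast. The report gives the counts of all 34 lists, which share some genes. A fold against a group in which no array was well above background (Gm28548) was taken against the lowest signal well above background and is a lower bound. Where some arrays of a group were above it (Cyp2b13, Moxd1, Rbm24), the fitted change is given with their number. The members and lists were chosen with earlier results of these data known. Some genes that this rule selects are not reported here. Same-numbered mice of the 2 diets deviated from their group means with correlations of -0.12 to 0.37, above 0.1 in 2 of 8 pairs. The mice were treated as unpaired, and these correlations alone cannot show whether the numbers reflect a pairing. Alternatives covered the weights, the arrays fitted, background, normalization, dim-probe filter, threshold, wash term, slide, replicate block, the probe of a gene and each of the 16 mice left out. Leaving out CTRL replicate 1 together with the weights was added after seeing the data. Array weights fitted within the 16 PPARaLKO arrays were tried as well.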

Additional observations from a re-analysis of the deposited data

Results flagged for a closer look

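In each PPARaLKO group of 8 mice the highest or lowest mouse was compared with the others for the 111 named genes and the array weight. Of 224 groups of values 37 held a mouse far from the rest, 31 of them CTRL replicate 1, while chance flags about 1 in 20 groups. CTRL replicate 1 was far above the other CTRL mice, in log2 signal, for the macrophage genes Gpnmb (10.77), Cd63 (14.69), Cd9 (12.19), Spp1 (14.74) and Adgre1 (11.26), for Col1a2 (13.97), Timp1 (10.19), Sparcl1 (13.13), Tlr2 (10.18) and Ccl2 (10.73), and for Acot2 (10.84), Fgf21 (9.61), Lpl (12.38), Lrtm2 (9.96), Rbm24 (7.42), Gsta2 (15.03), Atf3 (9.68), Cbr3 (11.80) and Amacr (14.38). It was far below them for the male-biased genes Hsd3b5 (6.60), Slco1a1 (8.89), Cyp4a12a (12.38) and Cyp4a12b (12.95), and for Ppara (13.26), Cyp2c38 (10.87), Nr1i3 (10.80), Cyp8b1 (7.51), Pax2 (7.51), Gm21286 (7.22) and Clec4f (11.47). Its array weight of 0.189 was the lowest of its group. The other 6 values were the Saa1 and Saa2 signals of HFD replicate 5 (18.14 and 18.38), Gpc1 in HFD replicate 3 (12.27), Pnpla3 in CTRL replicate 5 (11.56), Agxt2 in CTRL replicate 2 (14.91) and the array weight of HFD replicate 6 (2.53).

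The diet response of 41 named genes differed between PPARaLKO and PPARaWT mice in limma. On the log2 scale, as PPARaLKO minus PPARaWT, the sterol genes differed by -2.59 (Msmo1), -2.44 (Nsdhl), -2.41 (Sqle), -2.29 (Hmgcs1), -2.22 (Mvd), -1.87 (Pmvk) and -0.46 (Srebf2), and Acss2 by -1.79. Genes of fatty acid oxidation and their neighbours differed by -0.42 (Ppara), -1.45 (Acot2), -1.66 (Fitm1), -2.30 (Cyp4a10) and -0.72 (Ehhadh). Other lower responses were those of Cyp4a12a (-2.37), Cyp4a12b (-2.33), Cyp8b1 (-2.73), Cyp2c38 (-1.95), Nr1i3 (-0.71), Srgap3 (-2.15), Pdzk1ip1 (-1.35), Slc16a11 (-2.14), Pax2 (-3.20), Gm21286 (-2.53), Pltp (-1.75) and Gm28548 (-1.53). Higher responses were those of Cyp2b13 (2.95), Gm42035 (1.5), Gpnmb (2.97), Lrtm2 (2.49), Lpl (2.43), Gipc2 (1.98), Sparcl1 (1.83), Rbm24 (1.60), Mmp12 (1.54), Cd63 (1.67), Cd9 (1.22), Jun (1.20), Chac1 (1.39), Atf3 (1.34), Hspa5 (0.53) and Cbr3 (1.75). Without array weights 13 of these differences were called, namely Msmo1, Nsdhl, Hmgcs1, Pmvk, Sqle, Mvd, Slc16a11, Srgap3, Acss2, Cyp2b13, Gm21286, Pdzk1ip1 and Pltp.

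Between PPARaLKO and PPARaKO mice 23 named genes differed in response. As PPARaLKO minus PPARaKO, higher responses were found for Cyp2b9 (6.08), Cyp2b10 (5.37), Cyp2b13 (3.60), Agpat9 (3.61), Cdkn1a (3.004), Scd1 (2.31), Amacr (1.47) and Myom3 (1.38). Lower responses were found for Tff3 (-3.19), Pnpla5 (-2.72), Pltp (-2.41), Rbm24 (-2.04), Gm28548 (-1.91), Fabp5 (-1.91), Sqle (-1.89), Pdzk1ip1 (-1.65), Chrna4 (-1.62), Mvd (-1.53), Srgap3 (-1.32), Nsdhl (-1.11), Pmvk (-1.05), Slc16a11 (-0.99) and Rpl28 (-0.36). For Gm28548, which was well above background on 0 PPARaLKO HFD arrays, both differences are fitted values of uncertain size. Without weights Cyp2b9, Cyp2b13, Pdzk1ip1, Pltp, Rbm24, Scd1 and Amacr were called.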

How the results depend on the processing

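The main settings gave 6735 called probes (3152 higher, 3583 lower, 303 changing by at least 1, 5632 gene names), 3472 and 1139 differences in response from PPARaWT and PPARaKO mice, 350 list members called and 95 of 111 named genes called. Values in the same order are given for each alternative that moved them by over 1.5 times. Without array weights they were 1270 (526, 744, 117, 1098), 298 and 110, 104 and 51. With the 16 PPARaLKO arrays alone and no weights they were 970 (477, 493, 111, 845), 106 and 51, and differences in response were not fitted. Without weights and without CTRL replicate 1 they were 1916 (846, 1070, gene names 1646), 1109 and 91, and 147 list members. At an adjusted p of 0.01 they were 3197 (1528, 1669, gene names 2720), 1091 and 329, and 223 list members, as a stricter threshold must give fewer. With no filter on dim probes, which tests 56605 probes, they were 3578 (1683, 1895, gene names 3050), 1226 and 399. Without the wash term 4236 probes were called, 1808 of them higher, with 3586 gene names and 2185 differences from PPARaWT mice. The processed signal scaled at its 75th percentile gave 5449 lower probes and 835 changing by at least 1. Slide as a block gave 2122 differences from PPARaWT mice. The replicate block gave 6272 called probes and 2276 differences from PPARaWT mice, and 1 named gene lost its call. Leaving out each mouse in turn gave 4202 to 7574 called probes, 2025 to 3523 higher, 2177 to 4079 lower, 3564 to 6318 gene names, 274 to 358 changing by at least 1, 2366 to 4143 differences from PPARaWT and 550 to 1407 from PPARaKO mice, 277 to 385 list members and 88 to 96 named genes. The lowest of these counts came without HFD replicate 6, except for 274 (HFD replicate 5) and 2366 (CTRL replicate 4). Without CTRL replicate 4 the calls were 4437 (2071 higher, 2366 lower), and without CTRL replicate 8 the differences from PPARaKO mice were 724. Within the first wash batch the sign turned for Hsd3b5 (0.51), Slco1a1 (0.37) and Gm21286 (0.34). Of the 95 called named genes 42 kept their call under all 29 alternatives with a test, 44 lost it without weights and 24 without weights and CTRL replicate 1. The cause of the other moves was not tested. The median of all probes moved to at most -0.05 under any scaling. Dim probes limit the folds, as for Cyp2b13 and Gm28548.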
